A study of Homo sapiens with 3 samples.

Results

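The HOX genes encode homeodomain transcription factors and lie in 4 clusters, HOXA on chromosome 7, HOXB on chromosome 17, HOXC on chromosome 12 and HOXD on chromosome 2. Within a cluster the genes are numbered by paralog group, from the anterior end of the cluster (group 1) to the posterior end (group 13), and genes of the same number in different clusters descend from 1 ancestral gene. In the embryo, genes at the anterior end are switched on first and closest to the head, and those at the posterior end last and closest to the tail or the limb tips. Adult epithelia, breast included, keep a subset of the genes active, and Polycomb complexes and CTCF boundaries are known to keep the others silent. The 39 protein-coding genes whose symbol is HOXA, HOXB, HOXC or HOXD followed by a number were taken, of 20046 protein-coding genes and 62754 genes in the table. There were 11 in HOXA, 10 in HOXB, 9 in HOXC and 9 in HOXD.

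RNA-seq was performed on 3 replicates of MCF10A, a line of immortalized human mammary epithelial cells that does not form tumours. Cells carried the empty Retro-X Tet-One vector (EV), a retroviral system for inducible expression, with no gene inserted, had been selected with puromycin, and received no doxycycline, the drug that switches the system on. All replicates were of this condition and of batch 1, so there was no group to compare, and every statement below sets genes beside each other within the same cells. The question the series served was which enzymes of a metabolic model MCF10A cells express, at a cutoff of 1 TPM.

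TPM, a measure of transcript abundance, is the number of reads of a gene divided by its length and scaled to a common total, so levels of different genes are on a scale per length. The values were whole multiples of a smallest step in 100% of genes once multiplied by gene length, and that step was taken as 1 read. This gave 15273329, 15446347 and 11166546 reads on annotated genes in replicates 1, 2 and 3, of which 1462, 1655 and 963 fell on HOX genes. Whether the replicates were separate cultures is not given, so the spread between them may be technical. In replicate 3 the 2 non-coding RNAs RN7SL1 and RMRP took 17.1% of all TPM, against 5.44% and 6.32% in replicates 1 and 2. The label of breast epithelium was checked against marker genes. All 7 basal markers were at or above 1 TPM, from TP63 at 49.8 TPM to KRT5 at 6612 TPM, as were 4 of 4 general epithelial, 2 of 4 luminal, 2 of 6 fibroblast, 1 of 3 endothelial and 0 of 3 leukocyte markers. Of the luminal markers, GATA3 (12.8 TPM) and FOXA1 (1.11 TPM) were at or above 1 TPM. The hormone receptors ESR1 (0.0345 TPM) and PGR (0.00485 TPM) were near 0. The endothelial marker at or above 1 TPM was PECAM1 (1.77 TPM). The summed level of the 6 fibroblast genes was 13.6 to 14.8 TPM, mostly DCN and COL1A1, with COL1A2, PDGFRA and LUM at 0. These are bulk samples, in which expression in fewer cells and less RNA per cell cannot be told apart.

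The promoters of 2 pairs of paralogs are shown as examples of a pair with a large and a pair with a small difference in CpG dinucleotides, chosen after these counts were known, in which the HOXA member was detected and the HOXD member had no read in any replicate. The sequences are RefSeq's, on GRCh38.p14, and each gives the 250 bases before the start of the canonical transcript, 5′ to 3′ on the strand of the gene, with CpG dinucleotides (CG) in capitals. HOXA4 (chr7:27130758-27131007, minus strand) was measured at 0.999 TPM and HOXD4 (chr2:176151300-176151549, plus strand) at 0. HOXA10 (chr7:27174321-27174570, minus strand) was measured at 9.75 TPM and HOXD10 (chr2:176116528-176116777, plus strand) at 0.
HOXA4 promoter: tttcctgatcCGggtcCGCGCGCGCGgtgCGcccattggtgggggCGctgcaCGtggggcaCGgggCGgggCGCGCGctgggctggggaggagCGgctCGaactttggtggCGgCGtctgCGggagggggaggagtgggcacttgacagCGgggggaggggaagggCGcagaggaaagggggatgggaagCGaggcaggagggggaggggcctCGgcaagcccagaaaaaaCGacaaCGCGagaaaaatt
HOXD4 promoter: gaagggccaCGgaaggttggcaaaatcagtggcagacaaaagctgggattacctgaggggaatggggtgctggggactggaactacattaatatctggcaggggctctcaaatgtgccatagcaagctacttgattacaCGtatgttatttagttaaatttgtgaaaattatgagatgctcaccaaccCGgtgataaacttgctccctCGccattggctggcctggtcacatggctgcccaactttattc
HOXA10 promoter: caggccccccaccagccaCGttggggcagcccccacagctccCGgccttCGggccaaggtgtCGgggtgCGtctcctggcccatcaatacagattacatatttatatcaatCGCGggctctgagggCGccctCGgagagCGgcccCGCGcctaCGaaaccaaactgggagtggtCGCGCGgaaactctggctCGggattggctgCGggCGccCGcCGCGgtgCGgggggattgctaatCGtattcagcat
HOXD10 promoter: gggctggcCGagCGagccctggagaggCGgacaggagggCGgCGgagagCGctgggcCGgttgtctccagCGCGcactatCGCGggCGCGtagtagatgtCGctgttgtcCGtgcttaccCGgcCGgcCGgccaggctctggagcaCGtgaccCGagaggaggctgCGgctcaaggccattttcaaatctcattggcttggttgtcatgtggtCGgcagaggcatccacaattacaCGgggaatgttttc
HOXA4 held 26 CpGs and HOXD4 held 4, while HOXA10 held 24 and HOXD10 held 23. In all, 5 pairs of HOXA and HOXD paralogs had a window for both genes, and the HOXD gene had no read in any of them. The HOXA window held more CpGs in 3 of these pairs and fewer in 2. The other pairs were HOXA3 with 11 and HOXD3 with 21, HOXA11 with 11 and HOXD11 with 23, and HOXA13 with 40 and HOXD13 with 21. Such a window was found for 18 of the 39 genes, 9 in HOXA, 8 in HOXD and HOXB1. For HOXC4 and HOXC5 the only window lay 36.9 and 16.2 kb from the canonical start and was not used. The median number of CpGs was 22 over the 18 windows, 20 over the 5 genes at or above 1 TPM and 23 over the 13 below it, with 17 over 21613 windows of protein-coding genes, of which 96.8% held at least 1. The letters TATAAA, searched on both strands, were present in the windows of HOXA3, HOXA9, HOXA10 and HOXD13, 4 of 18 (22.2%), and in 8.99% of all windows. A match of letters is a description of the window and not a mapped site.

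Of the 39 HOX genes, 15 (38.5%) had a mean of at least 1 TPM, where the share over all 20046 protein-coding genes was 56.7%. The cutoff was reached in all 3 replicates by 14 genes, in 2 by 3, in 1 by 3 and in none by 19. At the other end, 13 HOX genes (33.3%) had no read in any replicate, against 26.2% of all protein-coding genes. The HOX genes that were on were of low to moderate level: their median was 7.06 TPM, and none of them exceeded 24.9 TPM, the median of protein-coding genes at or above 1 TPM. Over all 39 genes the median was 0.627 TPM, where that of all protein-coding genes was 3.75 TPM.

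Summed over the family, HOX genes made up 124, 134 and 96.0 TPM in replicates 1, 2 and 3. HOXA held 51.8% ± 0.169 (SD, n = 3) of this sum, HOXC 41.5% ± 0.843, HOXB 6.77% ± 0.654 and HOXD 0.0199%, the last from 1 read. The division between clusters was thus nearly the same in each replicate, with HOXA above HOXC, HOXC above HOXB and HOXB above HOXD in 3 of 3. By position, groups 1 to 3 (anterior) held 18.7% ± 2.54, groups 4 to 8 (central) 46.7% ± 2.24 and groups 9 to 13 (posterior) 34.6% ± 0.362. Genes at or above 1 TPM numbered 5 of 8 anterior, 5 of 15 central and 5 of 16 posterior genes, beside 56.7% of all protein-coding genes. No block of positions was thus silent as a whole.

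**Figure D1:**
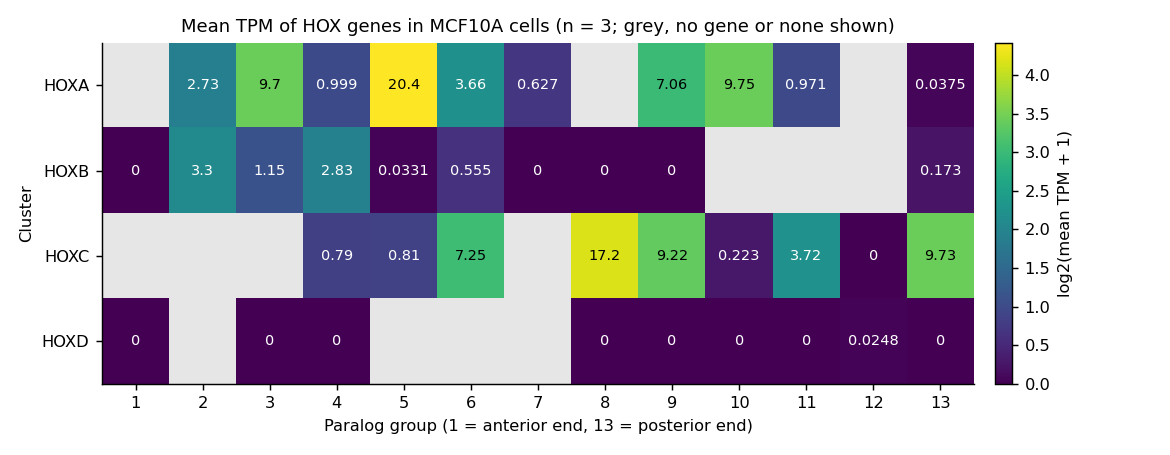
Mean TPM of HOX genes over 3 replicates, with clusters as rows and paralog groups 1 to 13, anterior to posterior, as columns. Grey cells have no gene or none shown. HOXA and HOXC hold 12 of the 15 genes at or above 1 TPM, and the HOXD row is at or near 0 throughout.

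HOXA was the cluster with the most genes on, 7 of 11, a share close to the 56.7% of all protein-coding genes. Of its central and posterior genes, 2 of 4 and 2 of 4 were at or above the cutoff. HOXA2, which sets the identity of the second pharyngeal arch, was at 1.81, 3.71 and 2.69 TPM in replicates 1, 2 and 3. HOXA3, needed for the thymus and parathyroid glands, was at 8.56, 13.4 and 7.11 TPM. Both genes were highest in replicate 2, and HOXA3 exceeded HOXA2 by 2.65- to 4.73-fold within replicates.

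In the centre of HOXA, 1 high gene stood between low ones. HOXA4 was at 0.550, 1.28 and 1.16 TPM. Its 26 reads (exact 95% Poisson interval 17.0 to 38.1) did not separate it from the cutoff, set at 26.2 reads over its full length. However, 32.1% of its canonical transcript is shared with a same-strand gene, where reads were not assigned, so 26.2 is too high an expectation. HOXA5 (chr7:27141052-27143681), a regulator of lung development, was at 21.4, 21.7 and 18.0 TPM. With a mean of 20.4 ± 2.02 TPM (SD, n = 3) from 519 reads it had the highest mean of the family, at percentile 68.1 of protein-coding genes. HOXA5 exceeded HOXA4 by 15.5- to 38.9-fold within replicates, and HOXA6 by 3.48- to 8.88-fold. With reads divided by the exonic bases that no other gene shares, these became 10.4- to 25.9-fold and 4.19- to 10.7-fold. HOXA6 was at 6.15, 2.81 and 2.03 TPM, on 32, 15 and 9 reads, so its mean of 3.66 ± 2.19 TPM had a wide error. HOXA7 was at 1.04, 0.733 and 0.111 TPM on 11, 8 and 1 reads, and was the HOXA gene whose replicates differed most in ratio among those with 10 or more reads.

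In the posterior part of HOXA, HOXA9 and HOXA10 were on and the genes behind them were low. HOXA9, known from blood stem cells and leukaemia, was at 8.65, 6.89 and 5.62 TPM. HOXA10, known for its part in the uterus, was at 11.2, 11.3 and 6.76 TPM, and the ranges of these 2 neighbours overlapped. HOXA11, a gene of the limb, kidney and uterus, was at 0.427, 1.32 and 1.17 TPM. Its 39 reads (27.7 to 53.3) spanned the 40.5 reads expected at 1 TPM, and HOXA10 exceeded it by 5.78- to 26.3-fold. HOXA13, which shapes the digits and the genital tract, had 3 reads in all, at 0.0757, 0.0368 and 0 TPM.

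HOXC, which has no gene of groups 1 to 3, had 5 of 9 genes on, 2 of the 4 central and 3 of the 5 posterior ones. This too was close to the 56.7% of all protein-coding genes. HOXC4 was at 1.11, 0.866 and 0.392 TPM and HOXC5 at 0.590, 1.15 and 0.693 TPM, and their ranges overlapped. When reads were divided by the exonic bases that no other gene shares, HOXC5 exceeded HOXC4 by 2.17- to 7.22-fold with no overlap. HOXC6 was at 7.94, 7.97 and 5.84 TPM. HOXC8 (chr12:54008985-54012769), a gene of the thoracic region, was at 18.1, 19.9 and 13.8 TPM, a mean of 17.2 ± 3.14 TPM from 639 reads. HOXC8 exceeded HOXC6 by 2.28- to 2.49-fold and HOXC9 by 1.72- to 2.24-fold, with no overlap of the ranges in either case. It was below HOXA5 in 3 of 3 replicates, but the ranges of these 2 genes overlapped.

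HOXC9, which sets thoracic identity in motor neurons, was at 8.08, 11.6 and 8.02 TPM. HOXC10, its posterior neighbour and a gene of lumbar motor neurons, was at 0.481, 0.187 and 0 TPM, on 7 reads. HOXC11 was at 4.13, 4.42 and 2.60 TPM, and HOXC12 had no read. HOXC13 (chr12:53938831-53946544), which controls hair keratin genes in the follicle and nail, was at 9.99, 10.1 and 9.09 TPM, a mean of 9.73 ± 0.558 TPM and the smallest spread on the log2 scale (SD of log2(TPM + 1) 0.08) among the 15 genes. The posterior part of HOXC thus alternated, with HOXC9, HOXC11 and HOXC13 on and HOXC10 and HOXC12 far below 1 TPM.

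HOXB had 3 of 10 genes on, all within groups 2 to 4, against 56.7% of all protein-coding genes. HOXB1, which specifies the facial nerve territory of the hindbrain, had no read. HOXB2 was at 3.39, 3.85 and 2.65 TPM, a mean of 3.30 ± 0.601 TPM. HOXB3 was at 1.44, 1.05 and 0.954 TPM, with a read interval that spanned the cutoff. HOXB4, used to expand blood stem cells, was at 3.51, 2.86 and 2.12 TPM, and exceeded HOXB3 by 2.22- to 2.72-fold, or by 3.75- to 4.58-fold per unshared base. Behind HOXB4 the cluster was at or near 0. HOXB5 had 1 read, HOXB6 was at 0.776, 0.660 and 0.228 TPM on 17 reads, and HOXB7, HOXB8 and HOXB9 had none. HOXB13, known from the prostate and separated from the rest of its cluster by a long gap, was at 0.250, 0.122 and 0.147 TPM on 8 reads.

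No HOXD gene reached the cutoff. HOXD1, HOXD3, HOXD4, HOXD8, HOXD9, HOXD10, HOXD11 and HOXD13, the last known from the digits, had no read in any replicate, and HOXD12 had 1 read, in replicate 1. The 9 genes together held 19854 exonic bases that no other gene on the same strand covers, so reads could have been assigned to them. Over all clusters the 13 genes without a read each had 1136 to 3698 such bases, at least 78.6% of their exonic bases, and 3 reads, the limit a count of 0 allows, corresponded to at most 0.205 to 0.590 TPM depending on the gene. Their levels were therefore below the cutoff as far as counting error goes. These limits and the read intervals cover counting error only.

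**Figure D2:**
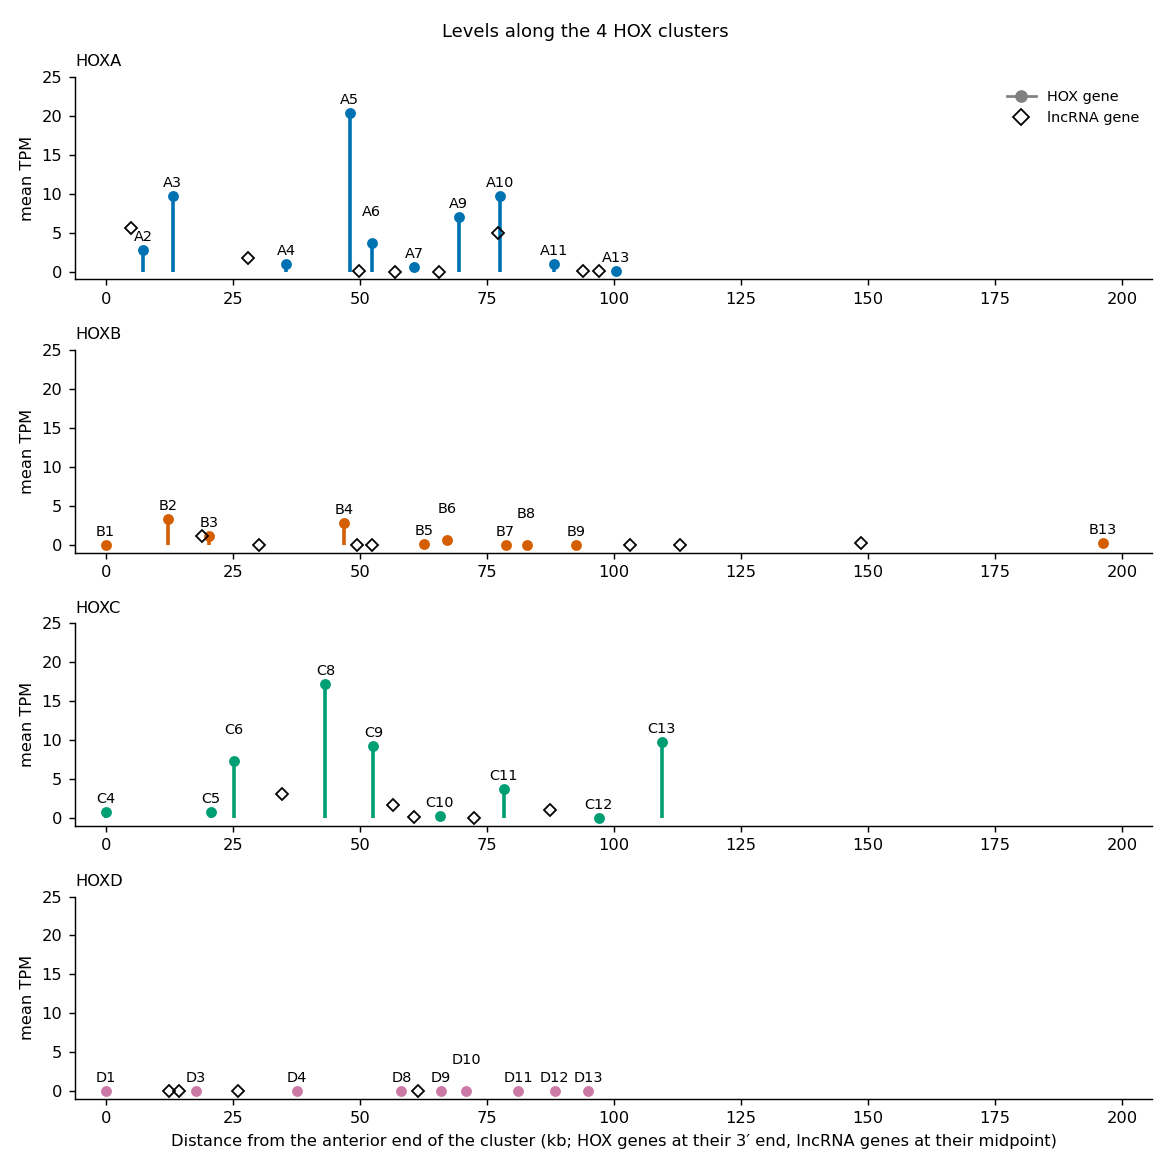
Mean TPM over 3 replicates along the 4 clusters, each drawn from its anterior to its posterior end, with the distance in kb on the x axis, HOX genes as filled points on stems and lncRNA genes as open diamonds. The genes at or above 1 TPM lie along nearly the whole of HOXA and HOXC, in the anterior part of HOXB and nowhere in HOXD.

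**Figure D3:**
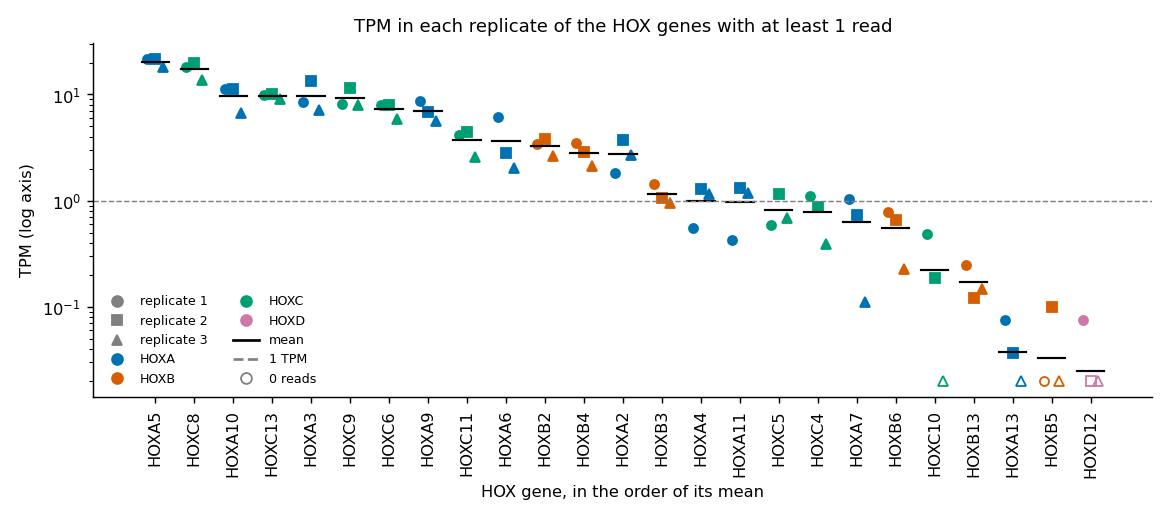
TPM (log axis) of the HOX genes with at least 1 read in each of the 3 replicates, in the order of the means, with symbols for replicates, colours for clusters, a bar at the mean, a dashed line at 1 TPM and open symbols at the foot for 0 reads. The points of HOXA5 lie between 18.0 and 21.7 TPM and those of HOXC8 between 13.8 and 19.9 TPM, while those of HOXA7 run from 0.111 to 1.04 TPM.

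Ordered by their means, the genes formed a ladder with few clear steps. Of 26 pairs of neighbours in this order, 21 had overlapping ranges over the replicates. The order was made from these same means, so its neighbours are the closest pairs and overlap between them was likely in advance. Among the 15 genes at or above 1 TPM the order had 14 neighbour pairs, 10 of which overlapped. Breaks lay between HOXC8 and HOXA10, between HOXC9 and HOXC6, and between HOXA2 and HOXB3, among others. HOXA10, HOXC13, HOXA3 and HOXC9, from 9.75 down to 9.22 TPM, could not be ordered.

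Neighbours on the chromosome were compared by the same rule. These pairs were not picked by level, so their counts cannot be set against those above. The share over arbitrary pairs of genes is not given here. With at least 10 reads required of each gene, 15 adjacent pairs could be compared, of which 13 had no overlap and 14 differed the same way in all 3 replicates. The exceptions to the first count were HOXA9 with HOXA10 and HOXC4 with HOXC5. Per unshared base, 14 of the 15 pairs had no overlap, HOXC4 with HOXC5 among them. With 3 replicates an exact two-sided sign test cannot go below p = 0.25, so the direction in 3 of 3 replicates and the ranges are given in place of a test.

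Read by paralog group, most groups were carried by 1 gene. HOXA held the highest gene of groups 3, 5, 7 and 10, HOXC that of groups 6, 8, 9, 11 and 13, and HOXB that of groups 2 and 4. Group 12, with HOXC12 and HOXD12 as its members, had 1 read. HOXA5 made up 96.1% of group 5, HOXA10 98.1% of group 10, HOXC13 97.9% of group 13 and HOXA3 88.8% of group 3, while HOXA7 and HOXC8 held all reads of groups 7 and 8. Summed over clusters, group 5 was highest at 21.2 TPM, followed by group 8 at 17.2 TPM and group 9 at 16.3 TPM.

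Shared groups were fewer. In group 9, HOXC9 held 56.6% and HOXA9 was below it in 2 of 3 replicates, with a log2 ratio of HOXA9 over HOXC9 of -0.39 ± 0.43 (SD, n = 3). In group 2, HOXB2 held 55.3%, and the log2 ratio of HOXA2 over HOXB2 was -0.31 ± 0.51. Neither pair could be separated by TPM. Per unshared base HOXC9 exceeded HOXA9 by 1.09- to 1.96-fold with no overlap of the ranges, while HOXA2 and HOXB2 still overlapped. That scale also pools all transcript models of a gene, of which HOXA9 has 8. HOXA9 was thus divided by 2552 bases in place of 2062, and HOXC9 by 1593 in place of 1502. Of 11 pairs of paralogs with at least 10 reads each, 7 had no overlap and 8 differed the same way in all replicates, and per unshared base 9 had no overlap. HOXA5 exceeded HOXC5 by 18.9- to 36.3-fold in TPM and by 6.01- to 11.5-fold per unshared base. In TPM, HOXA3 exceeded HOXB3 by 5.93- to 12.7-fold, and HOXC6 exceeded HOXB6 by 10.2- to 25.6-fold.

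Exons that genes of a cluster share bear on these levels. Among protein-coding genes in the table, 342 of 342 whose every exonic base also belongs to a same-strand gene had no read, whereas 13 of 16 whose bases are shared only on the opposite strand (at least 95% of them) had reads. Reads in shared same-strand exons were thus not assigned. Antisense overlap touches 20 HOX genes. Genes almost wholly under such overlap mostly kept some reads, but these can come from the bases outside it. Whether antisense overlap cost reads was therefore not tested. The use of strand is not stated, and the level of HOXA7, of which 1507 bases lie opposite HOXA-AS3, rests on it. Of the 39 genes, 23 share no base and 16 share some. HOXC5 shares the most: 67.3% of its canonical transcript is also in ENSG00000273046 or ENSG00000273049, which overlap it on the same strand. When the reads were divided by unshared exonic bases in place of gene length, HOXC5 was at 3.29 ± 1.24, which is 4.07 times its TPM. Unshared bases were pooled over all transcript models of a gene, whereas gene length was that of its longest model. On this scale a gene with a single model and no shared base rises 1.33-fold by the rescaling alone. HOXA4, which shares bases, came to 1.93 ± 0.749. HOXB3 fell below 1, to 0.929, though 93.6% of its exonic bases are unshared. Its 13 transcript models pool to 6948 unshared bases, against the 4206 behind its TPM. HOXA11 came to 1.29, but it shares no base on its strand and moved by the rescaling. With these changes 17 genes were at or above 1 in place of 15. Sequence shared between clusters was no such limit, since only HOXB3 and HOXD3 held runs of 50 bases present in a gene of another cluster, 0.170% and 0.357% of their runs.

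**Figure D4:**
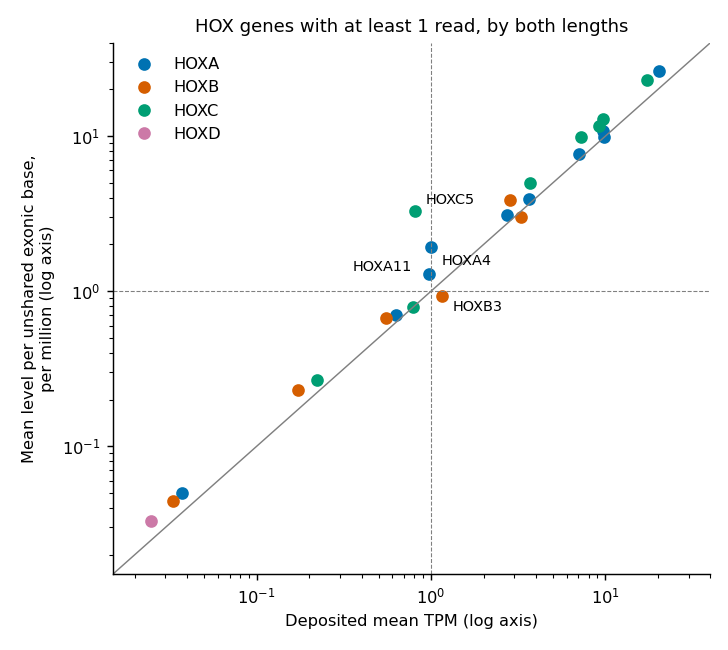
Mean TPM of HOX genes (x axis) beside the level from reads per unshared exonic base (y axis), both on log axes, with colours for clusters, dashed lines at 1 and a line of equality. HOXC5 moves most, from 0.810 to 3.29, and most other genes lie along a line slightly above equality.

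The clusters also hold non-coding genes, which were counted where their whole span lay between the first and the last base of the HOX genes of a cluster. There were 58 other genes, of which 26 were lncRNA genes, and 6 of these 26 (23.1%) were at or above 1 TPM, where the share over all 18866 lncRNA genes was 12.2%. None of the other types reached the cutoff. No read was assigned to the 8 miRNA and 17 misc_RNA genes, but these are short, and 13 of them have no unshared base, so the miRNAs of the clusters were not measured here. By cluster, lncRNA genes at or above 1 TPM numbered 3 of 9 in HOXA, 1 of 7 in HOXB, 2 of 6 in HOXC and 0 of 4 in HOXD. HOXD thus had neither a HOX gene nor a lncRNA gene at the cutoff, and its lncRNA gene HAGLR, named after its values were seen, had 1 read.

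HOTAIRM1, which lies on the strand opposite the HOXA genes and was described in myeloid cells, was at 6.84, 4.99 and 5.03 TPM. HOXA10-AS, antisense to the region of HOXA9 and HOXA10, was at 4.10, 7.33 and 3.47 TPM, and HOXA-AS2, antisense to HOXA3 and HOXA4, at 1.86, 2.33 and 1.18 TPM. HOTAIRM1 was highest in replicate 1 and the other 2 in replicate 2. In HOXC, ENSG00000260597, on the same strand as the HOX genes, was at 2.90, 4.41 and 2.08 TPM, and HOXC-AS1 at 1.39, 2.03 and 1.63 TPM on 14 reads. In HOXB, HOXB-AS1 was at 1.42, 1.39 and 0.558 TPM, also on 14 reads. HOTAIR, which lies between HOXC11 and HOXC12 and is known from breast tumours, was at 0.865, 1.76 and 0.370 TPM, a mean of 0.998 that the replicates placed on both sides of the cutoff. HOTAIR was named after its values were seen, as were HOTTIP, at 0, and HOXC13-AS, at 1.79 ± 0.622 TPM, which reach past the ends of HOXA and HOXC and were not counted above.

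Of 12 protein-coding genes next to or between the HOX genes, 6 (50%) were at or above 1 TPM, near the 56.7% of all protein-coding genes, and these included genes on both sides of the HOXD cluster. MTX2, a mitochondrial import gene 78.5 kb from the anterior end of HOXD, was at 67.9 ± 4.48 TPM, and LNPK, an endoplasmic reticulum protein gene 89.9 kb from its posterior end, at 23.9 ± 2.25 TPM. The homeobox gene EVX2, 8.76 kb from HOXD13, had no read. Beside HOXA, SKAP2 (97.8 kb) was at 21.5 ± 0.484 TPM and HIBADH (325 kb) at 69.7 ± 4.08 TPM, with EVX1 between HOXA13 and HIBADH at 0. Beside HOXC, the DNA repair gene SMUG1 (65.2 kb) was at 24.7 ± 3.29 TPM and CBX5, which encodes the heterochromatin protein HP1 alpha (175 kb), at 156 ± 15.7 TPM. At HOXB, SKAP1 (98.3 kb) and TTLL6 (33.5 kb) were at 0, as were PRAC1 and PRAC2, which lie inside HOXB between HOXB9 and HOXB13. Farther out on the posterior side of HOXB, CALCOCO2 (102 kb) was at 41.2 ± 3.93 TPM and ATP5MC1 (164 kb) at 93.4 ± 6.90 TPM, both named after their values were seen.

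HOX proteins bind DNA with TALE homeodomain partners of the PBX, MEIS and PKNOX families, and 7 of 9 of these (77.8%) were at or above 1 TPM, against 56.7% of all protein-coding genes. PBX2 was highest at 28.5 ± 5.78 TPM, followed by PBX3 at 28.4 ± 3.43, PKNOX1 at 20.0, MEIS2 at 8.40 ± 1.39, MEIS1 at 4.32 ± 0.981 and MEIS3 at 2.41 ± 0.356 TPM. PBX4 (0.375 TPM) and PKNOX2 (0.0276 TPM) were below.

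The mRNAs of the machinery known to keep HOX genes silent or active were at or above the cutoff throughout, against 56.7% of all protein-coding genes. All 11 genes of Polycomb repressive complex 2, which methylates histone H3 at lysine 27, were at or above 1 TPM, with a median of 37.2 TPM and RBBP7 (125 TPM), RBBP4 (82.4 TPM) and PHF19 (75.0 TPM) highest. All 20 genes of Polycomb repressive complex 1 were too, from CBX7 at 1.48 ± 0.559 TPM to PHC2 at 76.9 TPM, with CBX6 (45.9 TPM) and PCGF1 (40.7 TPM) next. Of the opposing MLL and related factors 16 of 16 were at or above the cutoff, with HCFC1 (108 TPM), WDR5 (98.7 TPM) and PSIP1 (68.6 TPM) highest. Of the genes for CTCF, MAZ and cohesin with its regulators, which shape chromatin loops and boundaries, 11 of 11 were, with MAZ (204 TPM), RAD21 (163 TPM) and PDS5A (146 TPM) highest.

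Retinoic acid induces HOX genes in the embryo, and 7 of 17 genes of its pathway (41.2%) were at or above 1 TPM, against 56.7% of all protein-coding genes. The receptors RXRA (84.6 ± 11.6 TPM), RARG (48.8 ± 2.87 TPM) and RXRB (31.6 ± 6.69 TPM) were highest. The 4 genes with no read were the receptor RXRG, the retinol importer STRA6, the retinoic acid hydroxylase CYP26A1 and the retinal dehydrogenase ALDH1A1. The ParaHox and CDX genes, the closest relatives of the HOX genes, were below the cutoff in 6 of 6, with PDX1 at 0.143 TPM and GSX1, GSX2, CDX1, CDX2 and CDX4 at 0. Of 24 other homeobox genes of the same class, 7 (29.2%) were at or above 1 TPM and 13 had no read. The highest were NKX2-5 (11.1 ± 2.44 TPM), MSX1 (10.9 ± 1.97 TPM) and MSX2 (7.48 ± 2.27 TPM), which is within the range of the HOX genes that were on.

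HOX genes were lower in replicate 3 than in the other replicates, as were most protein-coding genes of like level. Of the 15 genes at or above 1 TPM, 13 were lowest there. Their median log2 ratio of replicate 3 to replicate 1 was -0.39, with 13 of 15 lower, and to replicate 2 -0.46, with 15 of 15 lower. Over the 4959 protein-coding genes from 1 TPM to the highest HOX mean with reads in every replicate the ratios were -0.21 and -0.26. Of these genes, 3980 were lower in replicate 3 than in replicate 1 and 3968 lower than in replicate 2. The share of RN7SL1 and RMRP in replicate 3, given above, moves with this, and its part was not tested. The median SD of log2(TPM + 1) was 0.27 over the 15 HOX genes, from 0.08 to 0.64, and 0.18 over the 4961 protein-coding genes from 1 TPM to the highest HOX mean. For the HOX genes it was 0.20 with protein-coding genes rescaled to a common total, and 0.16 over replicates 1 and 2 alone. The other protein-coding genes have no such values here, so neither can be set beside the 0.18.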

How the data were processed

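RNA-seq was measured in 3 EV replicates of MCF10A. Libraries were made from 300 ng of RNA depleted of ribosomal RNA. Per the paper's methods the authors used Seq2science for mapping to hg38 and counting, and the submitters' notes list fastp, STAR, MultiQC and GRCh38.p14. The strand setting and annotation release are not given in the sources used here. The authors deposited TPM per gene, with each replicate in its own column.

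Types, positions and exons came from GENCODE release 44, in which 62700 of 62754 genes were found by identifier. Reads were recovered by dividing TPM times the length of the longest transcript, less 1 base per exon, by its smallest value above 0. Genes were counted at or above 1 TPM by the mean. With 1 condition no test between groups was possible, so ranges, SDs and exact Poisson intervals are given. The 39 HOX genes, and the other gene lists, were chosen with earlier results of these data known. The text names the HOX genes, every gene inside the clusters at or above 1 TPM, every TALE, ParaHox and neighbouring gene, and, of each other list, the 3 highest and, where any was below 1 TPM, the 3 lowest or those with no read. Marker lists are given by counts and examples. A few items that the rule would name are counted but not reported here. Promoter windows are RefSeq's. The recovery of reads was tested on simulated data. Alternatives covered the cutoff, the scaling, the pseudocount, the filter and leaving out each replicate. Scripts ran on Python 3.11.15 (scipy 1.17.1, pandas 2.3.3, numpy 2.4.6), and plots on matplotlib 3.10.9.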

Additional observations from a re-analysis of the deposited data

How the results depend on the processing

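The count of 15 HOX genes at or above 1 TPM was 21 at a cutoff of 0.5 TPM and 14 at 2 TPM or with every replicate required. It was 17 from reads per unshared base, from the median, with mitochondrial genes or RN7SL1 and RMRP left out (the latter chosen after seeing the data) and with protein-coding genes rescaled, and 15 to 17 when each replicate was left out, with 17 without replicate 1. The count of 13 genes without a read was 13 to 14 when each replicate was left out, and 16 genes had at most 3 reads. Dividing by unshared bases moved the shares to 49.1% for HOXA, 5.87% for HOXB and 45.0% for HOXC, and to 50.2% for central and 33.0% for posterior groups, with the order of clusters kept. Leaving out each replicate gave shares of 51.7% to 51.8% for HOXA, 6.40% to 6.98% for HOXB, 41.2% to 41.9% for HOXC, 0% to 0.0299% for HOXD, 17.5% to 20.1% for anterior, 45.5% to 47.7% for central and 34.5% to 34.8% for posterior groups. The median SD of log2(TPM + 1) was 0.17 with no filter on low values, since genes at 0 then enter it, and 0.16 to 0.26 when each replicate was left out. The 6 lncRNA genes became 3 at a cutoff of 2 TPM and 7 at 0.5 TPM, both chosen after seeing the data. The level of a single gene moved by more than its SD for 10 of 39 genes with unshared bases, 2 with protein-coding genes rescaled and 1 with mitochondrial genes left out. No paired analysis was possible because the design has a single group. Depth limits genes near the cutoff: for HOXA4, HOXA7, HOXA11, HOXB3, HOXC4 and HOXC5 the read interval spanned 1 TPM. The reads expected at 1 TPM were taken over the full gene length, shared bases included, so for HOXA4 and HOXC5 they are too many. Shared bases, and not depth alone, thus limit these genes, and per unshared base HOXC5 was at 2.44, 4.72 and 2.73.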
